A study of Homo sapiens with 12 samples.

Results

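The 8 human condensin subunit genes and the gene of topoisomerase II alpha were followed through RNA levels, gene start accessibility and alternative splicing in T-47D cells treated with palbociclib. The 9 genes were chosen by name, as SMC2, SMC4, NCAPD2, NCAPD3, NCAPG, NCAPG2, NCAPH, NCAPH2 and TOP2A, and all 9 were found among the 19460 genes of the RNA table. T-47D is an established luminal, oestrogen receptor positive human breast cancer line, and palbociclib inhibits the cyclin-dependent kinases CDK4 and CDK6. Wild-type T-47D cells received 1 µM palbociclib or the solvent DMSO for 24 h. Each treatment had 3 replicates for poly(A) RNA sequencing and 3 biological replicates for ATAC-seq, which reads how open chromatin is to the transposase Tn5. The RNA titles give a replicate number and do not call the replicates biological. The ATAC-seq replicates were grown in separate dishes. All groups are the same single cell line, so they stand for 1 tumour model.

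Condensins are ring-shaped complexes that extrude DNA loops and compact chromosomes for mitosis. Both forms share the ATPase core of SMC2 and SMC4. Condensin I adds the kleisin NCAPH, which closes the ring, and the HEAT-repeat subunits NCAPD2 and NCAPG, and it reaches chromatin after the nuclear envelope breaks down. Condensin II adds the kleisin NCAPH2 and the HEAT-repeat subunits NCAPD3 and NCAPG2, and it is nuclear throughout the cell cycle. Topoisomerase II alpha, the product of TOP2A, passes one DNA duplex through another, which removes the links between sister chromatids, and it is a main protein of the mitotic chromosome axis. In cycling cells TOP2A RNA is highest in G2 and mitosis, whereas its paralog TOP2B is made in cycling and resting cells alike.

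The stretches in which transcription of these genes starts are shown because the genes are described below by RNA level and by accessibility at the start. RefSeq promoter windows on GRCh38.p14, from 250 bases before to 50 bases after a start, were matched for 8 of the 9 genes, with 11 windows in all. Capitals mark matches on either strand to the CCAAT box (CCAAT, bound by NF-Y), to the cell cycle homology region CHR (TTTGAA or TTCGAA, bound by the DREAM and MuvB complexes) and to an E2F motif (TTTCCCGC, TTTCGCGC, TTTGCCGC or TTTGGCGC). Each sequence reads 5′ to 3′ on the strand of its gene. TOP2A (chr17:40417847-40418146, minus strand) and NCAPG2 (chr7:158704755-158705054, minus strand) are the genes with an accessible peak at the start. NCAPG (chr4:17810729-17811028, plus strand) and NCAPH (chr2:96335516-96335815, plus strand) are the condensin genes with the largest RNA falls, and NCAPD2 (chr12:6493852-6494151, plus strand) has as many CCAAT boxes as TOP2A.
TOP2A: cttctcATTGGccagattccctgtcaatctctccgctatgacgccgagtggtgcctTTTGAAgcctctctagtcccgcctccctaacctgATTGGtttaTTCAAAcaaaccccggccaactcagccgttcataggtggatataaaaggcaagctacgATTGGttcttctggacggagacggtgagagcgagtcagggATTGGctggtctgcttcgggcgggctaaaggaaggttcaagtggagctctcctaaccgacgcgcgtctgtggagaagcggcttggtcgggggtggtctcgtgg
NCAPG2: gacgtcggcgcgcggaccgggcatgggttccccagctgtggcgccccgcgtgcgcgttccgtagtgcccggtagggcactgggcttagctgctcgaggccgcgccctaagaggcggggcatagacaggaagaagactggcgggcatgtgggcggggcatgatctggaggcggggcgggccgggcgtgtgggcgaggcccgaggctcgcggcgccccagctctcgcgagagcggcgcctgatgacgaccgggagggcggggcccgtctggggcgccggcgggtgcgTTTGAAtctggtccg
NCAPG: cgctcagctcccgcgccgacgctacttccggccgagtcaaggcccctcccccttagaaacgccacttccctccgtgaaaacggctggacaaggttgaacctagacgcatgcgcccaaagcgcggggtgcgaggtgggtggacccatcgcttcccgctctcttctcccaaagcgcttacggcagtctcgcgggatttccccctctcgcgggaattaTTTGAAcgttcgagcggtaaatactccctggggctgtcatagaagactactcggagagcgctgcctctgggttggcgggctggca
NCAPD2: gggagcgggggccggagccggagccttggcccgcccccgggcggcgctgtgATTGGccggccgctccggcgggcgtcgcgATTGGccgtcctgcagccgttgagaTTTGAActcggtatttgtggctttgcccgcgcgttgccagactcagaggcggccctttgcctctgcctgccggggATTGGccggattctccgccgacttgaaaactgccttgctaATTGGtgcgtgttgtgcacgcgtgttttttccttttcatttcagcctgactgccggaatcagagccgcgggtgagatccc
NCAPH: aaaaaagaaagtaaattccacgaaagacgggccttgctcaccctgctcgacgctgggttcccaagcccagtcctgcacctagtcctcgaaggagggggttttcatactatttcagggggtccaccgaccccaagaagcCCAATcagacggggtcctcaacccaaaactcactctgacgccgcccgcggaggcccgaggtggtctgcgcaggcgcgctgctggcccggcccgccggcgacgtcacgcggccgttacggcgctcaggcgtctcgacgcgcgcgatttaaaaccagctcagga

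The TOP2A window held 4 CCAAT boxes, whose first bases lay 244, 160, 93 and 53 bases before the start, and 2 CHR matches at 194 and 151 bases before it. NCAPD2 also held 4 CCAAT boxes, at 199, 170, 70 and 30 bases before the start, with 1 CHR match at 145. Windows with 4 or more CCAAT boxes made up 0.991% of the 35116 RefSeq windows searched in the same way. NCAPG had 1 CHR match 35 bases before the start and no CCAAT box, NCAPG2 had 1 CHR match 35 bases after the start, and NCAPH had 1 CCAAT box 112 bases before the start and no CHR match. Over the 8 matched genes, 7 had a CHR match, 4 a CCAAT box and 1, NCAPD3, an E2F match, while over all windows the shares were 16.4%, 34.6% and 3.31%. Several genes have more than 1 window, so the gene counts and the window shares have different denominators, and 7, 4 and 1 of the 11 windows of these genes held the motifs. A match is a run of letters and was not tested for binding, and the motifs searched do not overlap in these windows.

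In the RNA libraries every one of the 9 genes was lower with palbociclib. Mean levels with palbociclib ranged from 6.68% of the DMSO level for NCAPG to 43.4% for NCAPH2. Levels are FPKM, the authors' length-scaled values, and changes are log2 differences of FPKM + 1 tested with limma over 15869 genes with Benjamini-Hochberg adjustment. All 9 passed an adjusted p of 0.05 as lower, beside 22.9% of all genes tested, and none was higher, beside 20.9%. All 9 also fell by at least 1 on the log2 scale, beside 3.04% of genes called at that size, and 3.22% of genes changed by that much in either direction. Groups did not overlap for any of the 9, all lower, beside 28.2% of genes with all palbociclib libraries lower and 26.5% with all higher. The median log2 change of the 9 was -2.06, and that of all genes tested was 0.0023. In bulk RNA, fewer cells that carry a transcript and less of it per cell cannot be told apart.

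**Figure D1:**
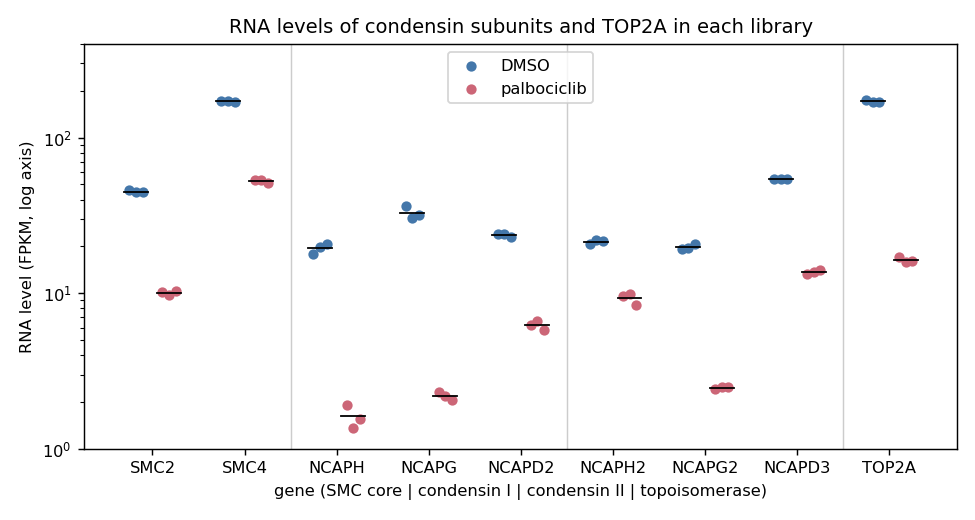
RNA level of each gene in each library, in FPKM on a log axis, with points for the 3 DMSO and 3 palbociclib libraries and bars for the group means. In every gene the palbociclib points lie below all DMSO points, with the widest gaps for NCAPG, NCAPH and TOP2A and the narrowest for NCAPH2.

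The shared core was expressed at unequal levels. SMC4 (ENSG00000113810, chr3:160399650-160434953, plus strand) stood at 172.3, 172.5 and 170.0 FPKM in DMSO replicates 1 to 3 and at 53.7, 53.7 and 51.0 FPKM in palbociclib replicates 1 to 3. The groups lay far apart, and the log2 change was -1.68 (SE 0.031, limma adjusted p = 2.00e-09). SMC2 (ENSG00000136824, chr9:104088263-104141419, plus strand), its partner in the ATPase dimer, stood at 45.8, 44.5 and 44.7 FPKM in DMSO and at 10.2, 9.72 and 10.3 FPKM with palbociclib. All palbociclib libraries were below all DMSO libraries, with a log2 change of -2.06 (SE 0.039, limma adjusted p = 2.08e-09). SMC4 kept 30.8% of its DMSO level and SMC2 kept 22.4%. SMC4 was the gene with the highest level of the 9 with palbociclib, where 11.5% of tested genes had a higher mean FPKM, against 2.95% in DMSO.

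Of the condensin I subunits, the kleisin and the HEAT-repeat subunit NCAPG fell the most. NCAPG (ENSG00000109805, chr4:17810979-17844865, plus strand) stood at 36.1, 30.4 and 31.7 FPKM in DMSO and at 2.32, 2.19 and 2.06 FPKM with palbociclib. Its mean fell 14.96-fold, from 32.7 ± 3.00 to 2.19 ± 0.132 FPKM (SD, n = 3 per group), and its log2 change of -3.40 (SE 0.071, limma adjusted p = 3.70e-09) left 25 tested genes with a lower value. NCAPH (ENSG00000121152, chr2:96335766-96377091, plus strand) stood at 17.9, 19.8 and 20.8 FPKM in DMSO and at 1.92, 1.37 and 1.56 FPKM with palbociclib. This was the lowest level of the 9 genes with palbociclib, and the mean fell 12.04-fold, with a log2 change of -2.97 (SE 0.090, limma adjusted p = 3.81e-08). NCAPD2 (ENSG00000010292, chr12:6494102-6531955, plus strand), the other HEAT-repeat subunit, stood at 24.1, 24.0 and 22.9 FPKM in DMSO and at 6.24, 6.61 and 5.78 FPKM with palbociclib. It fell less than its partners, 3.81-fold, with a log2 change of -1.78 (SE 0.055, limma adjusted p = 4.35e-08).

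The condensin II subunits fell from 2.31-fold to 8.04-fold, and those of condensin I from 3.81-fold to 14.96-fold. NCAPG2 (ENSG00000146918, chr7:158631169-158704804, minus strand) stood at 19.2, 19.5 and 20.8 FPKM in DMSO and at 2.42, 2.49 and 2.49 FPKM with palbociclib. The palbociclib libraries lay closer together than those of any other of the 9 genes, with an SD of 0.0373 FPKM, and the mean fell 8.04-fold, with a log2 change of -2.59 (SE 0.053, limma adjusted p = 3.31e-09). NCAPD3 (ENSG00000151503, chr11:134150113-134225461, minus strand) stood at 54.1, 54.1 and 53.9 FPKM in DMSO and at 13.3, 13.6 and 14.1 FPKM with palbociclib. Its level was the highest of the non-SMC subunits in both groups, and it fell 3.95-fold, with a log2 change of -1.91 (SE 0.036, limma adjusted p = 1.97e-09). NCAPH2 (ENSG00000025770, chr22:50508224-50524780, plus strand), the kleisin of condensin II, stood at 20.6, 22.1 and 21.5 FPKM in DMSO and at 9.61, 9.90 and 8.34 FPKM with palbociclib. Its groups did not overlap, and its fall of 2.31-fold, with a log2 change of -1.13 (SE 0.065, limma adjusted p = 2.80e-06), was the smallest of the 9.

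TOP2A (ENSG00000131747, chr17:40388525-40417896, minus strand) stood at 174.2, 168.8 and 169.7 FPKM in DMSO and at 17.1, 15.8 and 16.0 FPKM with palbociclib. It kept 9.54% of its DMSO level, from 170.9 ± 2.91 to 16.3 ± 0.723 FPKM (SD, n = 3 per group), and its log2 change of -3.31 (SE 0.039, limma adjusted p = 3.90e-10) had 33 tested genes below it. In DMSO 2.98% of tested genes had a higher mean FPKM than TOP2A, and with palbociclib 34.3% did.

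In DMSO the order of levels was SMC4 and TOP2A, whose libraries overlapped, then NCAPD3, SMC2, NCAPG and NCAPD2, then NCAPH2, NCAPG2 and NCAPH, each of which overlapped the next. With palbociclib the order was SMC4, TOP2A, NCAPD3, SMC2, NCAPH2, NCAPD2, NCAPG2, NCAPG and NCAPH, and only SMC2 and NCAPH2 overlapped as neighbours. NCAPG2 and NCAPG thus changed places, and NCAPH2 moved above NCAPD2. The 3 condensin genes that shared a level in DMSO were separated with palbociclib, NCAPH2 at 9.29 ± 0.828, NCAPG2 at 2.47 ± 0.0373 and NCAPH at 1.62 ± 0.281 FPKM (SD, n = 3). By size of the change of log2(FPKM + 1) in single palbociclib libraries, NCAPG and TOP2A overlapped at the top. NCAPD2 and SMC4 overlapped near the bottom, and the other neighbours in the order did not overlap. The places of TOP2A and NCAPH in this order, and which neighbours overlap in it, depend on the added 1 FPKM. By mean FPKM NCAPH fell more than TOP2A, 12.04-fold against 10.5-fold.

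The authors' deposited table, made with DESeq2 on counts, gave all 9 genes as lower, beside 20.3% of its genes with an adjusted p. In the authors' deposited table the log2 changes of the genes with low palbociclib levels were larger in size than on the log2(FPKM + 1) scale, where the added 1 FPKM draws low values together by construction. For NCAPG the authors' deposited table gave -3.90, for NCAPH -3.60 and for NCAPG2 -3.01. For SMC4 the authors' deposited table gave -1.70, for TOP2A -3.39 and for NCAPH2 -1.21. The mean normalized counts in the authors' deposited table over the 6 libraries ran from 1715 for NCAPH to 39865 for TOP2A.

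**Figure D2:**
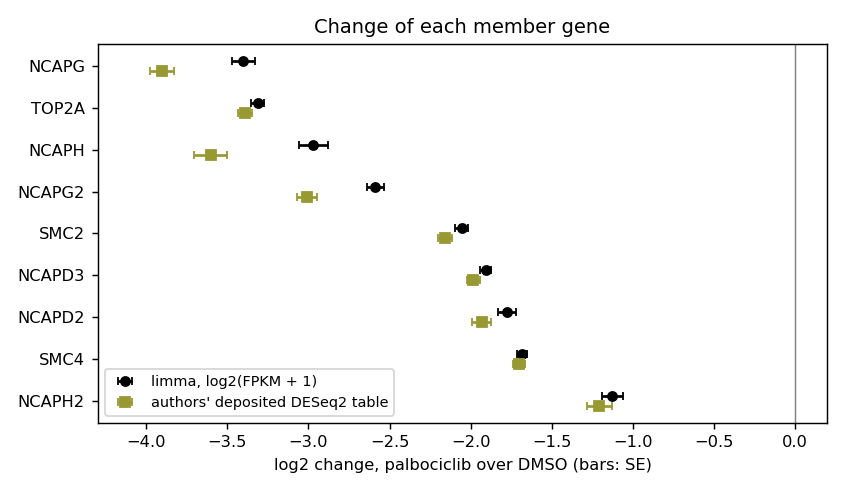
Log2 change of each gene, palbociclib over DMSO, from limma on log2(FPKM + 1) (circles) and from the authors' deposited DESeq2 table (squares), with bars for the SE. All values lie left of 0, from NCAPH2 at -1.13 to NCAPG at -3.40 by limma, and the circles and squares part most for NCAPH, NCAPG and NCAPG2.

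The subunits of condensin I and condensin II that hold the same place were then compared as FPKM ratios within each library, together with the SMC pair and the topoisomerase II pair. There were 5 ratios, and with 3 libraries against 3 the exact two-sided permutation test cannot go below p = 0.1. The kleisin ratio NCAPH2 over NCAPH was 1.15, 1.12 and 1.03 in DMSO and 5.00, 7.23 and 5.34 with palbociclib. The NCAPH2 share of the kleisin FPKM went from 52.4% ± 1.38 to 85.1% ± 2.39 (SD, n = 3), a 5.25-fold change of the ratio (exact permutation p = 0.1, adjusted over the 5 ratios 0.125). NCAPG2 over NCAPG was 0.53, 0.64 and 0.66 in DMSO and 1.04, 1.14 and 1.21 with palbociclib, so that NCAPG2 was the lower of the pair in every DMSO library and the higher in every palbociclib library (1.86-fold, exact permutation p = 0.1, adjusted 0.125).

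NCAPD3 over NCAPD2 was 2.24, 2.25 and 2.35 in DMSO and 2.13, 2.06 and 2.43 with palbociclib. These groups overlapped, and the log2 ratio differed by -0.05, from 1.19 ± 0.039 to 1.14 ± 0.127 (SD, n = 3, exact permutation p = 0.5, adjusted 0.5). The difference for the NCAPD pair was thus within the spread of the libraries, while the kleisin and the NCAPG pair had groups that did not overlap. SMC4 over SMC2 was 3.76, 3.88 and 3.81 in DMSO and 5.25, 5.53 and 4.97 with palbociclib, a 1.37-fold difference without overlap (exact permutation p = 0.1, adjusted 0.125).

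The ratio of the type II topoisomerases changed the most of the 5. TOP2B, the paralog with a role in transcription, stood at 41.5, 40.7 and 40.7 FPKM in DMSO and at 45.7, 45.1 and 45.3 FPKM with palbociclib, a rise of 0.14 in log2 units (limma adjusted p = 0.00519). TOP2B over TOP2A was 0.24 in each DMSO library and 2.67, 2.86 and 2.84 with palbociclib, an 11.6-fold difference (exact permutation p = 0.1, adjusted 0.125). TOP2A was 80.7% of the topoisomerase II FPKM in DMSO and 26.4% with palbociclib.

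**Figure D3:**
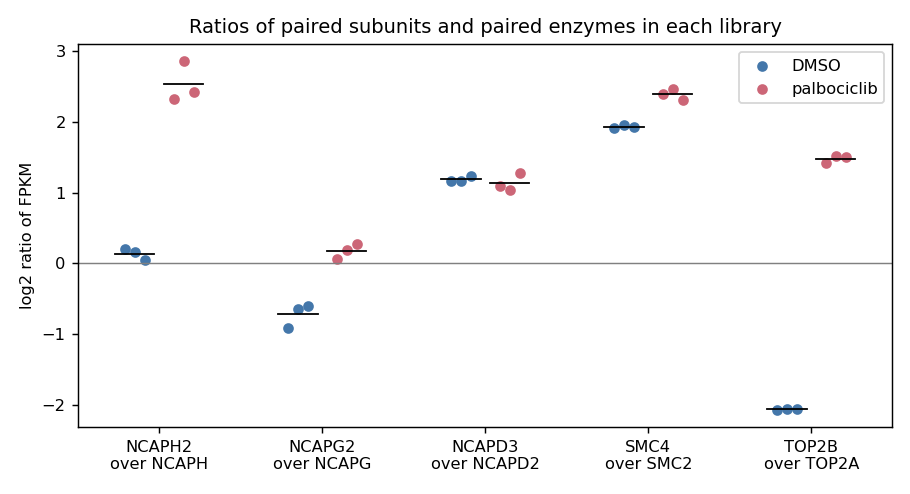
Log2 ratio of FPKM of paired subunits and of the topoisomerase II enzymes in each library, with points for the 3 DMSO and 3 palbociclib libraries and bars for the group means. The groups are apart in all pairs but NCAPD3 over NCAPD2, and both NCAPG2 over NCAPG and TOP2B over TOP2A cross 0, the level of equal FPKM.

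Cohesin and the SMC5/6 complex are also SMC rings, with roles in sister chromatid cohesion and DNA repair. Of 15 listed genes of these other SMC complexes, 12 passed the filter on low values, 10 fell and 1 rose. Over all genes tested, 22.9% were called lower and 20.9% higher. The median log2 change of the list was -0.58. The 10 include STAG2, a cohesin subunit, whose fall of 0.17 was not called after quantile normalization or median centring, nor without DMSO replicate 1 or palbociclib replicate 2, with limma adjusted p from 0.0545 to 0.223. SMC1A, a cohesin ATPase, fell from 57.7 ± 1.20 to 24.3 ± 1.42 FPKM (log2 change -1.22, limma adjusted p = 1.64e-07), and the cohesin kleisin RAD21 fell from 127.5 ± 3.61 to 61.3 ± 0.791 FPKM (-1.05, limma adjusted p = 4.30e-08). SMCHD1, an SMC-related protein of the inactive X chromosome, fell by 0.88 on that scale (limma adjusted p = 5.81e-06). NSMCE1, a subunit of the SMC5/6 complex, rose by 0.14 (limma adjusted p = 0.0351), and that call was lost without an intensity trend in the fit and without DMSO replicate 1 or 3 or palbociclib replicate 1 or 2, with adjusted p from 0.0719 to 0.118. Of the 12 tested genes on this list only SMC1A had a larger log2 fall than NCAPH2, the condensin gene that fell least, and the difference between these genes was not tested.

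Of the 5 other topoisomerases, TOP3A, which acts with BLM on recombination intermediates, fell by 0.82 in log2 units (limma adjusted p = 1.42e-06). TOP1MT, the mitochondrial enzyme, rose by 0.20 (limma adjusted p = 0.0107), and TOP2B rose by 0.14, as given above. The median log2 change of these 5 was 0.02. TOP1 and TOP3B did not pass, with log2 changes of 0.02 and -0.13.

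Of 14 genes for condensin regulators and the chromosome scaffold, 9 fell and none rose, beside 22.9% and 20.9% of all genes tested. Their median log2 change was -2.43. The largest falls were those of AURKB, the Aurora kinase that promotes condensin I loading (-3.86, limma adjusted p = 6.00e-10), CCNA2, the gene of cyclin A2 (-3.73, limma adjusted p = 4.70e-10), and MKI67, the gene of Ki-67 on the chromosome surface (-3.60, limma adjusted p = 8.08e-10). The 5 that did not pass were MCPH1, an inhibitor of condensin II, AKAP8, the casein kinase 2 subunits CSNK2A1 and CSNK2A2, and the phosphatase subunit PPP2CA, with log2 changes from -0.09 for MCPH1 to 0.10 for AKAP8.

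The genes whose profile over the 6 RNA libraries lay closest to that of TOP2A, by Euclidean distance of centred log2(FPKM + 1) values, were GTSE1 at 0.041, DLGAP5 at 0.107 and PBK at 0.131, with log2 changes of -3.30, -3.33 and -3.39. Closest to NCAPH2 were DDX39A at 0.125, MTBP at 0.129 and CCDC34 at 0.129, with log2 changes of -1.08, -1.13 and -1.11. These distances are a description over 6 libraries and move with the size of the treatment difference. They also depend on the added 1 FPKM, which draws low values together. In mean FPKM, GTSE1, DLGAP5 and PBK each fell by a larger fold than TOP2A. From DMSO to palbociclib, GTSE1 went from 23.3 to 1.46 FPKM and TOP2A from 170.9 to 16.3 FPKM.

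All 8 luminal epithelial markers were present, from 43.2 FPKM for ESR1 to 2113 FPKM for KRT19 in DMSO. Of the 8, 7 rose, beside 20.9% of all genes tested, and their part in the condensin values was not tested. Of the 6 markers of other cells, 2 were matched in the RNA table. COL1A1 was at 23.7 ± 0.582 FPKM in DMSO and 25.1 ± 1.17 with palbociclib, VIM was at 1.58 ± 0.379 and 1.92 ± 0.289, and neither passed the test. PTPRC, PECAM1, KRT5 and KRT14 were searched for, had no matching row in the table as used here and so have no value. FPKM columns summed to 710623 to 773814, and Pearson r across genes ran from 0.995 upward between libraries of a group and reached 0.971 between groups, so no RNA library stood apart. Counts in the 38121 ATAC-seq peaks were 12830062 to 18250496 per library.

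Accessibility was read in the authors' peak set at 13 starts of the 9 genes. TOP2A and NCAPG2 had a peak within 1 kb of a start, and the other 7 genes had none there. Counts were given only for the peak set, so a start without a peak has no value and is not shown to be closed. That is 2 of 9 genes (22.2%), or 2 of the 8 with a listed RefSeq promoter (25.0%), beside 44.0% of 10994 tested genes with a listed promoter and 51.1% of the 368 of them that fell by at least 1 on the log2 scale. No test was made of these shares. The peak at the TOP2A start (chr17:40417495-40418486 on GRCh38) covers the whole promoter window printed above. It held 179.1, 171.6 and 186.5 CPM (counts scaled to the TMM-adjusted library total) in DMSO and 138.6, 148.3 and 139.0 CPM with palbociclib.

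All 3 palbociclib libraries lay below the DMSO libraries at the TOP2A peak, from 179.1 ± 7.46 to 142.0 ± 5.47 CPM (SD, n = 3 per group). The log2 change was -0.33 (edgeR quasi-likelihood adjusted p = 2.83e-07), and 6.46% of all peaks were called lower and 5.41% higher. The RNA of TOP2A fell by 3.31 in log2(FPKM + 1), which is a different measure, so the sizes of the 2 falls are not directly comparable. At the NCAPG2 start (chr7:158704583-158705416) the CPM were 136.7, 125.1 and 129.4 in DMSO and 126.6, 121.9 and 124.6 with palbociclib. These groups overlapped, and the log2 change of -0.07 did not pass (edgeR adjusted p = 0.422). The RNA of NCAPG2, again a different measure, fell 8.04-fold.

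Inside the gene bodies 3 more peaks were listed. The one in NCAPG2 (chr7:158695872-158696719), 8085 bases from the start, held 13.4, 14.2 and 13.8 CPM in DMSO and 20.6, 21.4 and 22.1 CPM with palbociclib. It was higher in all palbociclib libraries (log2 change 0.63, edgeR adjusted p = 8.19e-06), opposite in direction to the RNA of the gene. The peak in NCAPH2, 7684 bases from its start, went from 10.2 ± 1.18 to 12.4 ± 1.57 CPM (log2 change 0.27, edgeR adjusted p = 0.171). The peak in NCAPD3, 16233 bases from its start, went from 9.68 ± 0.308 to 8.89 ± 1.99 CPM (log2 change -0.13, edgeR adjusted p = 0.636). Groups overlapped in both. Counts per library were 112 to 202 in the NCAPH2 peak and 115 to 170 in the NCAPD3 peak, against 1952 to 3128 at the TOP2A start.

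**Figure D4:**
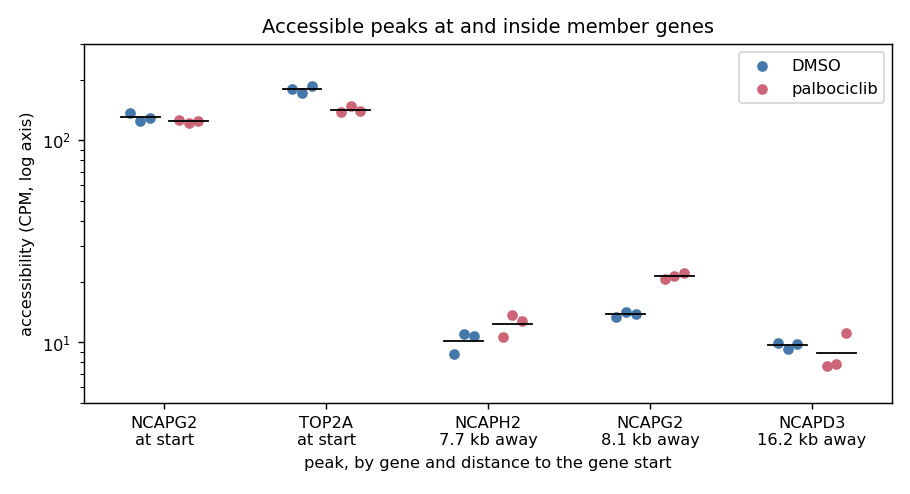
Accessibility in CPM on a log axis at the 5 peaks at or inside the genes, with points for the 3 DMSO and 3 palbociclib libraries and bars for the group means. The TOP2A start is lower and the peak inside NCAPG2 is higher in every palbociclib library, and the groups overlap at the other 3 peaks.

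Alternative splicing of the 9 genes was read from the authors' rMATS tables, which count reads for 2 forms of each event. There were 181 events in these genes, 75 of them in SMC4 and 45 in NCAPD3. Of the 181, 37 were tested, those with 20 or more reads per library on average and a rarer form that made up 5% of reads or more. None of the 37 was called at an adjusted p under 0.05, beside 0.355% of all 37445 tested events. By unadjusted p under 0.05 it was 1 event, beside 8.53% of all, and by the authors' deposited FDR under 0.05 it was 1 other event, beside 3.82% of the same 37445 events. Events of 1 gene share reads, so the 37 are not independent.

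Inclusion levels of the tested events differed little between the groups. The median size of the difference was 1.46 percentage points, and 33 of the 37 differed by less than 5 points. Mean inclusion was higher with palbociclib in 20 and lower in 17. These values were not computed over all tested events, so they do not set these genes apart. Of the 37 events, 17 were pairs of exons counted as mutually exclusive, a count that can pair exons present in nearly all forms. In TOP2A the 2 tested pairs of exons counted as mutually exclusive had inclusion of 36.5% ± 0.724 against 35.8% ± 1.88 and of 46.5% ± 1.17 against 45.3% ± 1.76 (SD, n = 3), on 1736 and 1383 reads in all with palbociclib. Counted as skipped exons, the exons of these pairs had mean inclusion from 99.5% to 100% in both groups. The pair values thus give the balance of reads between 2 exons that nearly all forms carry, and not how often an exon is left out. Reads were fewer with palbociclib, with a median of 2576 reads per event over the 3 DMSO libraries and 628 over the 3 palbociclib libraries, and in 5 events a library had fewer than 20 reads. Smaller shifts than the spread of such events were not detectable at this depth.

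The event with the smallest p was a retained intron of 71 bases in NCAPD2 (chr12:6514265-6514587 with its flanking exons). The intron was included in 4.51%, 4.13% and 4.52% of forms in DMSO and in 12.1%, 8.31% and 5.90% with palbociclib. The groups did not overlap, but the palbociclib libraries varied widely, from 4.38 ± 0.221 to 8.77 ± 3.12% (SD, n = 3, edgeR adjusted p = 0.403), on 838 DMSO and 213 palbociclib reads. The event called by the authors' deposited FDR of 0.0310 was a skipped exon of 53 bases in NCAPG2 (chr7:158703650-158703702). Its inclusion was 8.02%, 3.91% and 8.16% in DMSO and 0%, 6.75% and 0% with palbociclib, so the groups overlapped, and with 489 against 61 reads it did not pass here (edgeR adjusted p = 0.742).

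**Figure D5:**
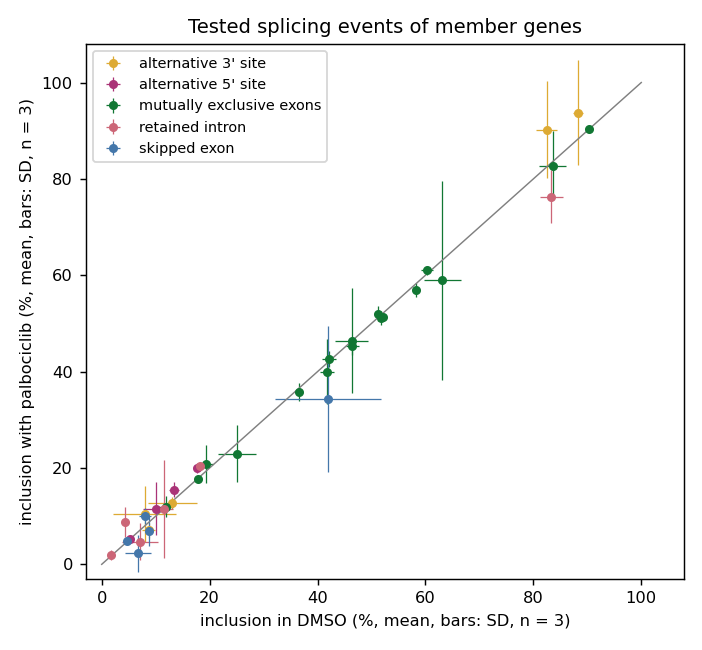
Mean inclusion of the 37 tested events with palbociclib against DMSO, in percent, coloured by event type, with bars for the SD over 3 libraries (bars may pass the limits of 0 and 100). Points follow the line of equal inclusion, with wide vertical bars where reads with palbociclib were few.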

How the data were processed

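Poly(A) RNA and ATAC-seq libraries (3 per treatment and assay) were grouped by the labels. Gene levels were FPKM as deposited by the authors, who per the submitters' processing notes used fastp 0.23.2, Salmon 1.10.2, STAR 2.7.10b and DESeq2 1.44.0 with GRCh38. The authors' deposited DESeq2 table gave a mean normalized count (a signal value), log2 fold changes with SE, a Wald statistic (a score) and p-values. Their rMATS tables, per the file headers, gave junction and exon-body read counts per form, an inclusion fraction and a p-value with FDR. For ATAC-seq the notes name Bowtie2 and MACS3. Peak counts were made by the authors with featureCounts, per the file headers, over 1 peak set on hg38. No option to count read pairs is named there, so counts are taken as reads. Counting strand and annotation are not given in the sources used here.

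RNA was tested with limma 3.58.1 (intensity trend) in R 4.3.3 on log2(FPKM + 1), for genes that averaged 0.5 FPKM or more. Peaks were tested with edgeR 4.0.16 (quasi-likelihood, TMM, filterByExpr, 0 peaks removed). Splicing was tested with edgeR on both forms, with a term per library, over all event types. Each was adjusted with Benjamini-Hochberg over its whole table and checked on simulated data. Ratios used exact permutation tests. Named were all 9 genes, TOP2B, up to 3 called genes each way per list, the 3 closest profiles to TOP2A and to NCAPH2, called events and start peaks, and otherwise the event of smallest p. Named beyond that rule, after their values were seen, were the peaks inside genes, the event called by the authors' FDR and TOP2A's tested events. So were STAG2 and the list genes that did not pass. The neighbouring genes, all those found to start within 1 kb, were also outside that rule. The genes and lists were chosen with earlier results of these data known. FPKM give no total count per library, so RNA depth is known only through the authors' mean normalized counts.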

Additional observations from a re-analysis of the deposited data

How the results depend on the processing

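Each of the 9 genes stayed lower and past the threshold under the 12 alternatives for RNA (pseudocount of 0.1, no filter, quantile normalization, median centring, no trend, replicate block, and each library left out), with limma log2 changes from -3.84 to -3.30 for NCAPG, from -3.52 to -2.88 for NCAPH and from -1.20 to -1.03 for NCAPH2. The calls at the TOP2A start (log2 change -0.37 to -0.31) and inside NCAPG2 (0.60 to 0.66) also held in their 11 alternatives. A pseudocount of 1 lowered the log2 difference of the NCAPH2 over NCAPH ratio to 1.85. With quantile normalization or median centring 2 genes of other SMC complexes and 1 regulator were higher, and leaving out a library gave 0 to 1 higher genes of other SMC complexes. Over all genes, median centring gave 5468 higher and 2465 lower and quantile normalization 4588 higher and 2856 lower, as they shift the median log2 change to 0.098 and 0.057. Over all peaks, the DESeq2 Wald test called 1533 lower and 981 higher, and leaving out a library gave 1557 to 2176 lower and 1103 to 1874 higher. Scaling by library totals called 2030 and 2573. The authors' deposited FDR called 1 of the 37 tested events of the 9 genes, beside 3.82% of all tested events. Over all events, a minor form of at least 1% called 85, and leaving out a library 59 to 126. The cause of these shifts was not tested.

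The labels do not say whether replicate numbers pair the libraries, and correlations over 3 libraries per group cannot settle it. Deviations of same-numbered libraries had r from -0.0051 to 0.106 in RNA and -0.028 to 0.042 in ATAC-seq, and 2 of 3 palbociclib libraries in each assay correlated best with their own number. With the replicate block, 3633 genes were lower and 3330 higher, 2470 peaks were lower and 2133 higher, and 248 splicing events were called, with 9 of the 9 genes lower and 0 of their events called. With that block the exact sign-flip test of the ratios cannot go below p = 0.25.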

Other observations

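Neighbouring genes start within 1 kb of 5 of the 9 genes, on the opposite strand. LMF2, whose start lies 522 bases from that of NCAPH2, fell by 0.87 in log2 units (limma adjusted p = 1.40e-05), next to the fall of 1.13 of NCAPH2. DCAF16, 222 bases from NCAPG, fell by 0.52 (limma adjusted p = 0.000492), and MRPL51, 840 bases from NCAPD2, fell by 0.48 (limma adjusted p = 0.000212). VPS26B, 704 bases from NCAPD3, fell by 0.14 (limma adjusted p = 0.0229), and IFT80, 425 bases from SMC4, had a log2 change of -0.10 (limma adjusted p = 0.166). Each neighbour thus had a change smaller in size than that of the condensin gene beside it, though the difference was not tested. The counting strand is not given in the sources used here, so reads from any overlap of such neighbours cannot be told apart.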
